A study of Mus musculus with 2 samples.

Results

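The microRNA genes of the miR-297, miR-466, miR-467 and miR-669 families were examined in small RNA libraries from mouse left cerebral cortex. Members were taken by gene name in the GENCODE M21 annotation: Mir297, Mir466, Mir467 or Mir669 followed by nothing, a letter, or a letter and a copy number. This rule gave 80 of the 2202 microRNA genes counted in the tables. Of the 80, 71 lie in the gene Sfmbt2 on chromosome 2 and 9 lie elsewhere, so the array in Sfmbt2 accounts for most but not all of these families. Mir297-1 on chromosome 7 has a copy number without a letter and falls outside the rule.

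Both libraries came from females of the strain B6CASTF1/J at 25 days of age, a first-generation cross of B6, a laboratory strain, with the wild-derived CAST. The labels name no treatment and no altered allele, and they form 1 group with 2 biological replicates. The animals are numbered separately under a common donor record, and the spread between them may be partly technical. RNAs below 30 nt were sequenced, and the microRNA genes received 3017058 own-strand counts in replicate 1, and 3209361 in replicate 2.

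MicroRNAs are cut from hairpin precursors, and the seed of the mature strand, its bases 2 to 8, guides base pairing with target messages. Sfmbt2 encodes a Polycomb group protein and is known in mouse as an imprinted gene, expressed from the paternal copy in extraembryonic tissue. One of its introns carries a large rodent microRNA array, which is best known from placenta and embryonic stem cells. Its hairpins arose by repeated duplication and are rich in alternating UG and CA letters.

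Mature sequences of 8 members, all of them outside Sfmbt2, were matched by symbol in the RefSeq table for build GRCm38.p6. They are printed 5′ to 3′ with the seed in capitals, because they show the UG and CA steps of the members outside Sfmbt2. They do not stand for the members in Sfmbt2, whose mature sequences are not printed.
Mir466k: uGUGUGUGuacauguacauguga
Mir466j: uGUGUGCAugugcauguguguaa
Mir669n: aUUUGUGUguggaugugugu
Mir467h: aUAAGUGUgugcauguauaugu
Mir466i-3p: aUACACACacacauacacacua
Mir467f: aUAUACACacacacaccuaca
Mir467g: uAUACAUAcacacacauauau
Mir466q: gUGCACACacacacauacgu
The 8 sequences are 20 to 23 nt long and carry 8 different seeds, so no 2 of them share one. Mir466k, Mir466j, Mir669n and Mir467h run in UG steps, with unbroken UG runs of 9, 7, 8 and 7 nt. The remaining sequences run in CA steps, with unbroken runs of 11 nt in Mir466i-3p, 12 nt in Mir467f, 9 nt in Mir467g and 12 nt in Mir466q. Mir466k and Mir466i-3p bear the same family number and have seeds of opposite repeat type. However, the printed sequence lies toward the 5′ end of the hairpin in Mir466k and toward the 3′ end in Mir466i. No mature sequence from the other side of either hairpin is printed, while the whole hairpin of Mir466k is printed below. Both hairpins hold an alternating UG run of 23 nt, and their longest CA runs are 3 nt in Mir466k and 11 nt in Mir466i. The contrast of seeds is thus between opposite sides. Like sides of these hairpins were not compared, and divergence within the family was not tested.

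Only the sequence of Mir467h occurred exactly in other counted hairpins, of which there were 2. With 1 mismatch allowed, 7 of the 8 sequences occurred in another counted hairpin, and that of Mir466q did not. Mir467f then matched 14 other hairpins, Mir467g 13, Mir466j 10 and Mir466k 9. Each count below is for a whole hairpin, with its arms added, and gives no level of a mature strand.

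Of the hairpins outside Sfmbt2, 2 are printed whole with the mature sequence in capitals, as the extremes of sharing. Mir466k is at 85467377 to 85467498 of chromosome 3, on the plus strand, opposite an intron of Gm37240. Mir669n is at 115979902 to 115979955 of the same strand, opposite an intron of the zinc transporter gene Slc30a7.
Mir466k: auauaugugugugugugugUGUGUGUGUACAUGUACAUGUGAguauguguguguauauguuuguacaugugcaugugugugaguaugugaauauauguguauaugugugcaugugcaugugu
Mir669n: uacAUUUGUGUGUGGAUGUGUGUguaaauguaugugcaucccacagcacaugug
The Mir466k hairpin, of 122 nt, has 20 nt or more in common with 87 other counted hairpins and holds an alternating UG run of 23 nt. The Mir669n hairpin, of 54 nt, has no such stretch in common with any.

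In the cortex, 8 members carried nearly all counts of the 4 families, and all 8 belong to miR-467 or miR-669 in Sfmbt2. They were Mir467d, Mir669c, Mir467e, Mir669o, Mir669l, Mir467c, Mir669e and Mir669h, each with at least 10 counts in both libraries. No member of miR-297 or miR-466 reached that minimum. The 80 members summed to 5936 counts in replicate 1, or 0.197% of microRNA gene counts (exact 95% interval 0.192 to 0.202), and to 5589 counts in replicate 2, or 0.174% (0.170 to 0.179). The mean share was 0.185% ± 0.0160 (SD, n = 2). The intervals do not overlap, so the shares of these libraries lay further apart than counting error, which is all that the intervals cover.

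Of the 80 members, 8 (10%) were detected at that minimum, beside 395 of all 2202 counted genes (17.9%). Genes of other families with names other than provisional Gm names were detected in 380 of 1101 cases (34.5%). The difference between these shares was not tested, since members that copy each other are not independent. A further 7 members had 1 to 3 counts over both libraries, and 65 had 0 in both. With a floor of 3 counts, a gene at 0 could lie as high as 0.994 CPM (counts scaled to the library's own-strand sum) in replicate 1, or 0.935 CPM in replicate 2. This floor covers uniquely placed reads alone, and it sets no upper level for the members, 32 of the 65 at 0, that hold no 20-nt window of their own among the counted hairpins.

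Mir467d was the highest member, with 2180 counts in replicate 1 and 2643 in replicate 2. Its level was 773 ± 71.4 CPM (SD, n = 2), rank 114 among all counted genes. Mir669c followed with 1970 and 1613 counts, a level of 578 ± 106 CPM and rank 124. The ranges of Mir467d and Mir669c did not overlap, as the lower value of Mir467d was 723 CPM and the higher value of Mir669c was 653 CPM. These genes lie 1.58 kb apart and together gave 69.9% and 76.1% of the families' counts in replicates 1 and 2.

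Mir467e gave 838 and 663 counts, or 278 and 207 CPM. Mir669o gave 478 and 359 counts, or 158 and 112 CPM. Each of these genes stood below every value of the gene ranked above it and above every value of the gene ranked below it. The 4 highest members therefore kept the same order in both libraries.

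The other 4 detected members lay below 100 CPM and their order was less sharp. Mir669l had 191 and 86 counts, or 63.3 and 26.8 CPM. Mir467c had 117 and 133 counts, or 38.8 and 41.4 CPM. Mir467c fell between the values of Mir669l, so their order is not set by these libraries. Mir669e had 94 and 35 counts, or 31.2 and 10.9 CPM, and Mir669h had 64 and 51 counts, or 21.2 and 15.9 CPM. Mir669e and Mir669h overlapped in the same way, and Mir669e also reached above the lower value of Mir669l. In bulk tissue, a low level can come from fewer expressing cells or from less RNA per cell, and these cannot be told apart.

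**Figure D1:**
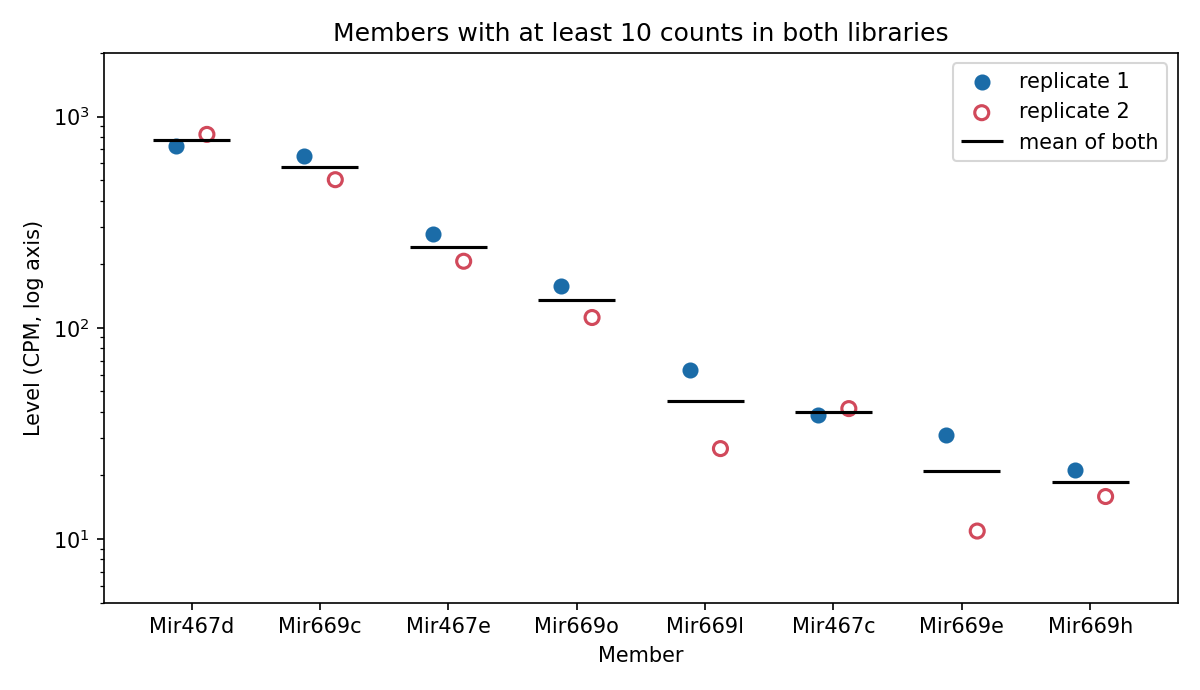
Level of each detected member in CPM on a log axis, with filled points for replicate 1, open points for replicate 2 and a bar for their mean. Mir467d leads at 723 and 824 CPM, and the levels fall to 21.2 and 15.9 CPM for Mir669h.

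Below these genes came a wide gap. Mir297b, the highest of the undetected members, had 1 and 2 counts. The lowest counts of a detected member were 64 in replicate 1, for Mir669h, and 35 in replicate 2, for Mir669e. Mir467b had 0 and 2 counts. Mir297a-2, Mir466n and Mir466q had 1 and 0, and Mir466 and Mir669i had 0 and 1. Mir466q was the sole member outside Sfmbt2 with any count.

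By family, miR-467 gave 3135 and 3441 counts in replicates 1 and 2, from 17 members of which 3 were detected. The miR-669 family gave 2797 and 2145 counts, from 30 members of which 5 were detected. The miR-466 family has 28 members and gave 2 and 1 counts, and the 5 members of miR-297 gave 2 and 2. Nearly all member counts thus came from miR-467 and miR-669. The surplus of miR-467 over miR-669 was larger in replicate 2 than in replicate 1.

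All 71 members in Sfmbt2 lie on the plus strand, the strand of the host gene, within a single intron. It is intron 11 of the principal transcript Sfmbt2-205 and intron 10 of the other full-length transcript, at 10461473 to 10523944 on chromosome 2, and spans 62.5 kb. The members occupy 51.6 kb of it, from 10466663 to 10518279, and none overlaps an exon. No gene other than Sfmbt2 overlaps any of them. Counts on the opposite strand were 0 for every member in both libraries.

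The detected members sat at the 2 ends of the array, on either side of a long centre with almost no counts. On the 5′ side lay Mir669e (10467495 to 10467613), Mir669l (10468971 to 10469068) and Mir467c (10473931 to 10474027). They gave 402 and 254 counts in all, 6.77% and 4.54% of the families' counts. On the 3′ side lay Mir467e (10505721 to 10505807), Mir467d (10507630 to 10507714), Mir669c (10509296 to 10509404), Mir669o (10514300 to 10514395) and Mir669h (10518155 to 10518279). That side gave 5530 and 5329 counts, 93.2% and 95.3%. Between Mir467c and Mir467e, 38 members over 31.7 kb gave 0 counts in replicate 1 and 2 in replicate 2, the latter from Mir467b. This centre was drawn between neighbouring detected genes, so by construction it holds no detected member. Undetected members also lay toward the ends, with 6 between Mir669c and Mir669o and 6 between Mir669o and Mir669h.

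The centre is a tandem array. Copies of Mir467a recur at a median spacing of 2.46 kb (10 copies, 2.41 to 4.88 kb), copies of Mir466b at 2.47 kb (8 copies, 2.41 to 9.79 kb) and copies of Mir669a at 2.46 kb (12 copies, 2.42 to 6.37 kb). All of these copies lie in the centre except Mir669a-2, which starts at 10510164 on the 3′ side. Across all 80 members there are 62 distinct hairpin sequences, and 26 members have a hairpin identical to that of another counted gene. The most repeated are 9 copies of Mir669a, Mir669a-4 to Mir669a-12, with 1 hairpin sequence, and 6 copies of Mir467a with another. These 26 members had 0 counts in both libraries.

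**Figure D2:**
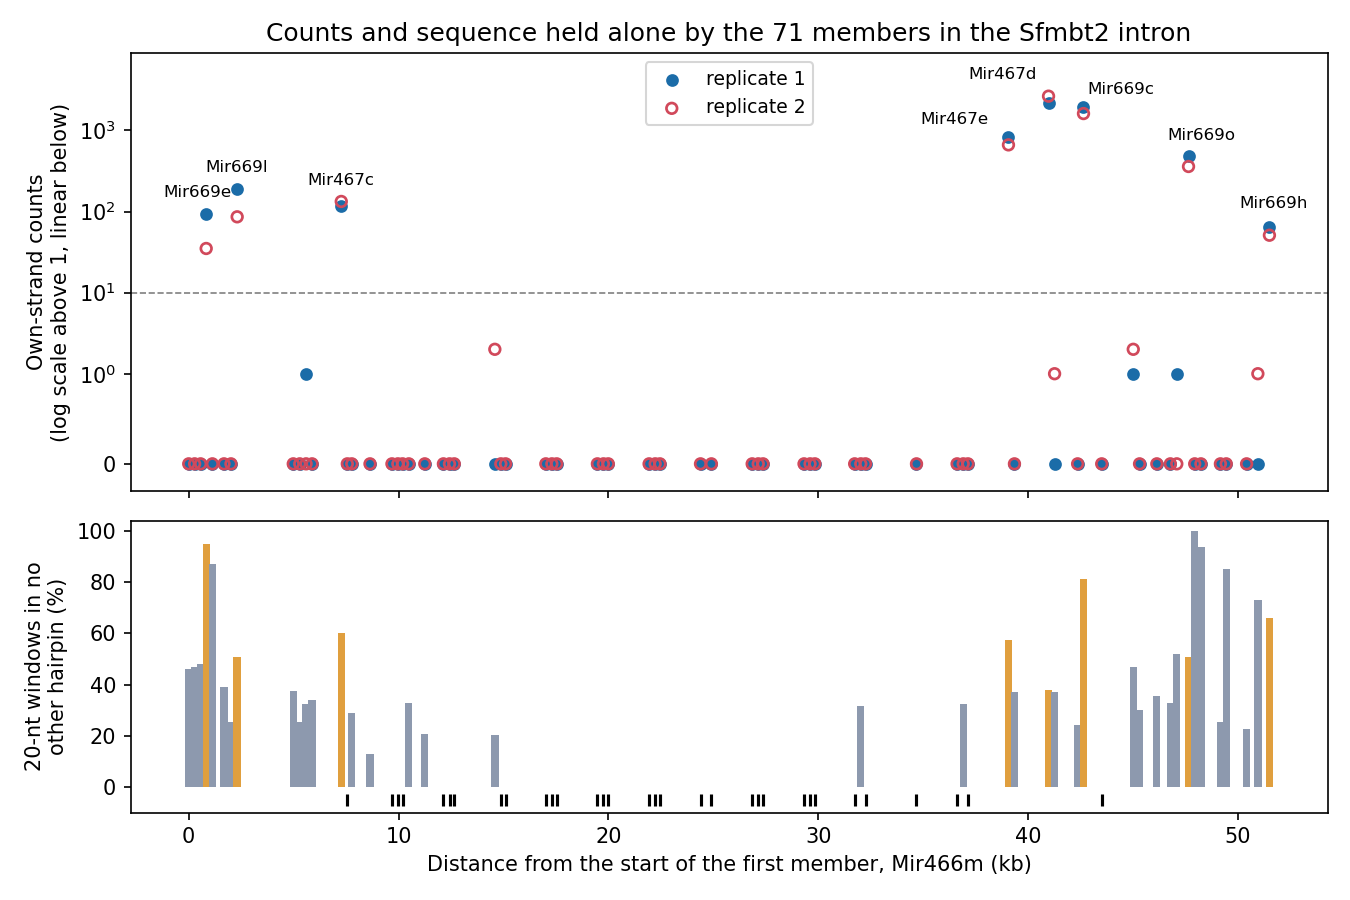
Upper panel, own-strand counts of the 71 members in Sfmbt2 against distance along the array in kb, with a dashed line at 10 counts. Lower panel, share of 20-nt windows of each hairpin that occur in no other counted hairpin, in orange for detected members, with black ticks where the share is 0. The 38 members between Mir467c and Mir467e had 0 and 2 counts and include 31 of the 32 members with a share of 0.

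Sequence held by a single gene is where a short read can be placed by exact match at 1 gene among the counted hairpins. Windows with mismatches were not compared. The layout of the tables keeps reads with several genomic placements apart, outside the gene counts. That class held 40.3% of reads in replicate 1 and 39.0% in replicate 2, which is 577 and 648 times the counts of all members. How many of those reads came from these families was not tested. Copies elsewhere in the genome were not looked for, so a window held alone here can still recur outside the annotated hairpins.

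Of the 80 members, 78 have at least 20 nt in common with a further counted hairpin, and the exceptions are Mir466g and Mir669n. For each hairpin, the share of its 20-nt windows found in no other counted hairpin was taken as the sequence held alone. In 32 members this share was 0. They were all 10 copies of Mir467a, 11 of 12 of Mir669a, 6 of 8 of Mir466b, both of Mir466c, both of Mir669p, and Mir466e, and 31 of them lie in that centre. These 32 members had 0 counts in both libraries, and the same 0 counts stood for the 32 members without a window of their own at 18 or 22 nt.

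Among the 48 members with some sequence held alone, 8 were detected, 15 had any count and 33 had none. All 8 detected members held at least 37.9% of their windows alone, with a median of 58.8%. At Sfmbt2 the 63 undetected members had a median of 0. Mir669e held 95% alone, Mir669c 81.1%, Mir669h 66.0%, Mir467c 60.3%, Mir467e 57.4%, Mir669o and Mir669l 50.6% each and Mir467d 37.9%. The order of levels did not follow this share, since Mir467d had the smallest share and the highest level, while Mir669e had the largest share and a level that overlapped that of Mir669h at the low end.

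Detection can be set out by steps of this share, for members and for other genes. None of the 32 members at a share of 0 and none of the 5 above 0 and up to 25% was detected, against 1 of 22 above 25% and up to 50%, 5 of 10 above 50% and up to 75%, and 2 of 11 above 75%. Among genes outside the 4 families, 2 of 269 (0.743%) were detected at a share of 0, 0 of 150 and 0 of 171 in the next steps, 4 of 160 (2.5%) above 50% and up to 75%, and 381 of 1372 (27.8%) above 75%. Of these genes, those without provisional Gm names were detected in 0 of 19, 0 of 10 and 0 of 15 cases in the steps up to 50%. They were detected in 4 of 25 cases (16%) above 50% and up to 75%, and in 376 of 1032 (36.4%) above 75%. These shares were not tested against each other.

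Members with much sequence of their own could still lack counts. Of the 11 members above 75%, Mir669c and Mir669e were detected and 9 had 0 counts in both libraries. Of those 9, Mir466g, Mir466h, Mir466l and Mir669b lie in Sfmbt2, and Mir466f-4, Mir466j, Mir466k, Mir467f and Mir669n lie elsewhere. Mir466g shares no stretch over 16 nt with any counted hairpin, lies between the detected genes Mir669o and Mir669h, and gave 0 counts.

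**Figure D3:**
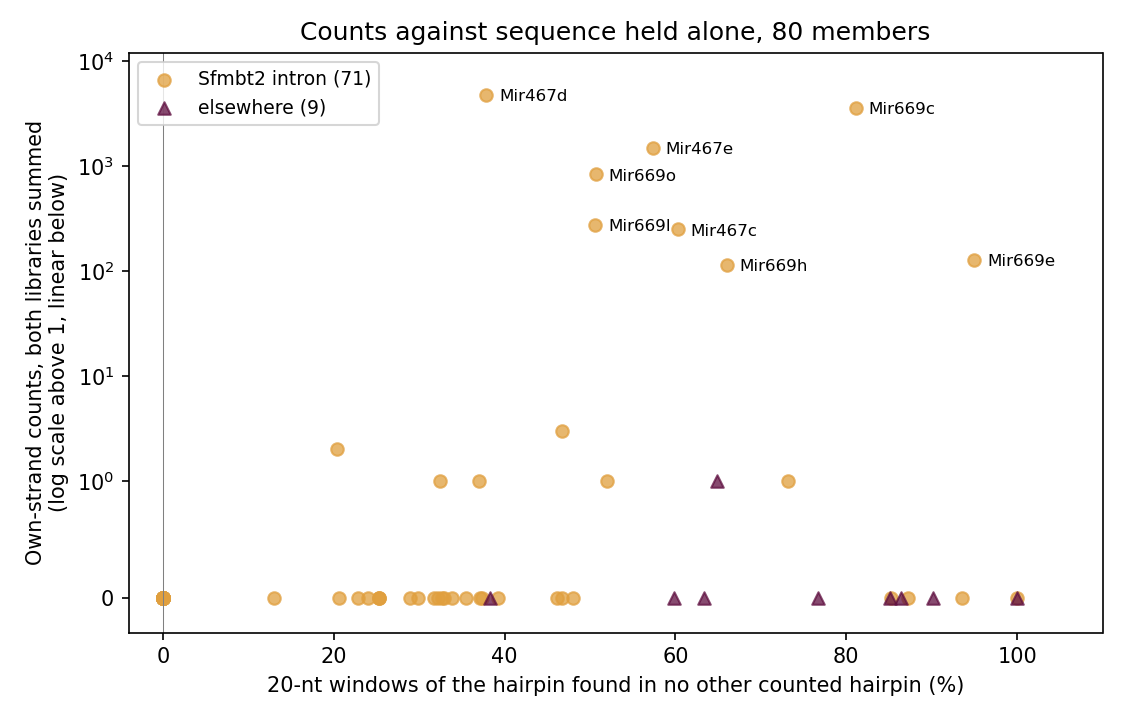
Own-strand counts of both libraries summed, against the share of 20-nt windows held by no other counted hairpin, for the 80 members. All 32 members at a share of 0 have 0 counts, the 8 named genes lie at 37.9% or above, and 9 members above 75% also have 0 counts.

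Mir467d combined many counts with a mostly shared hairpin. Of its 66 windows of 20 nt, 25 occur in no other counted hairpin, 19 of them centred before the midpoint of the hairpin and 6 after it. Its longest shared stretch covers 60 of its 85 nt and recurs in 10 other hairpins. Among the genes outside the 4 families, 590 hold at most 50% of their windows alone, and together they gave 85 counts in replicate 1 and 117 in replicate 2. The highest of these, Gm24270, had 36 and 38 counts. Mir467d, at 2180 and 2643 counts, stood above that whole group in both libraries. Of the 590, genes without provisional Gm names numbered 19 at a share of 0, 10 above 0 and up to 25%, and 15 above that. The rest carry Gm names, so Mir467d was set mostly against provisional genes.

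Mir467c and Mir467e are each other's nearest relatives, with a shared stretch of 48 nt, yet their levels differed. Mir467e had 278 and 207 CPM and Mir467c 38.8 and 41.4 CPM, so every value of Mir467e was above every value of Mir467c. Mir669l shares its longest stretch, 57 of 98 nt, with Mir669d, which had 0 counts in both libraries. Mir669c shares 36 nt with Mir669a-3, which also had 0.

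The members outside Sfmbt2 gave almost no counts, with 1 count in replicate 1 and 0 in replicate 2 over 9 genes. Mir466q lies on the sense strand of an intron of the kinase gene Tnik on chromosome 3. Mir466i, Mir466k, Mir467f, Mir467g and Mir669n lie opposite introns of Cdk13, Gm37240, Fxr2, Grk4 and Slc30a7, and Mir466f-4, Mir466j and Mir467h overlap no other gene. Their hairpins had a median length of 121 nt, against 87 nt for the members in Sfmbt2. Alternating TG runs of at least 10 nt were found in 7 of the 9 (77.8%), in 2 of the 71 members in Sfmbt2 (2.82%) and in 119 of all counted hairpins (5.40%). Alternating CA runs of at least 10 nt were found at a like share in both places, in 3 of the 9 members elsewhere (33.3%) and in 24 members in Sfmbt2 (33.8%), including 4 of the 8 detected ones, and in 6.18% of all counted hairpins. The longest, of 15 nt, were in Mir669c and Mir669h.

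Neighbouring and related hairpins gave almost no counts either. Another 48 counted hairpins with provisional Gm names lie in Sfmbt2, and they gave 3 and 1 counts in all, from Gm22072 (2 and 1) and Gm22239 (1 and 0). A further 107 counted hairpins outside Sfmbt2 share at least 20 nt with a member, and all of them had 0 counts. Of 9 genes of the miR-290 cluster, known from embryonic stem cells and trophoblast, none was detected, and the cluster summed to 3 and 7 counts.

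Other imprinted loci spanned a wide range of counts. Of 5 genes outside the Dlk1-Dio3 locus, 4 were detected. Mir298, at Gnas, reached 3863 ± 962 CPM, Mir335, in Mest, 3393 ± 1111 CPM, Mir296, beside Mir298, 979 ± 95.6 CPM, and Mir483, in Igf2, 95.8 ± 39.4 CPM. Mir675, in H19, had 0 counts. In the imprinted Dlk1-Dio3 locus, between Meg3 and Dio3, 51 of 67 genes were detected and held 17.2% ± 0.711 of counts, beside 8 of 71 genes and 0.185% ± 0.0160 for the members in Sfmbt2. In the Dlk1-Dio3 interval 10 of 67 hairpins share a stretch of at least 20 nt, against 70 of 71 in Sfmbt2. Parental alleles were not separated in the tables, so imprinting was not examined.

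Between the libraries, 6 of the 8 members with at least 10 counts in total differed by more than counting noise, all 6 toward replicate 1. The test was a two-sided exact binomial test with TMM scaling and Benjamini-Hochberg adjustment over 496 genes. It called 57.1% of the genes tested, 30.0% toward replicate 1 and 27.0% toward replicate 2, and the count of 6 out of 8 is to be read against these shares. The difference from them was not tested, and the 8 genes lie in a single intron. The other 72 members had too few counts to be tested. The median log2 ratio of replicate 2 over replicate 1 was -0.63 over the 8 members and 0.015 over all genes tested. These values compare 2 libraries and no condition.

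The largest ratios lay on the 5′ side of the array. Mir669e was 3.29-fold higher in replicate 1 (log2 ratio -1.72, 95% interval -2.32 to -1.15, exact binomial adjusted p = 6.32e-10). Mir669l was 2.72-fold higher in replicate 1 (log2 ratio -1.45, interval -1.83 to -1.07, exact binomial adjusted p = 4.24e-15). Their neighbour Mir467c showed no call, at a log2 ratio of -0.11 (interval -0.48 to 0.26). Whether Mir467c differed from its neighbours in this ratio was not tested, but its interval does not overlap theirs.

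On the 3′ side, 4 genes were higher in replicate 1, by at most 1.63-fold. Mir669c had a log2 ratio of -0.58 (interval -0.68 to -0.49, exact binomial adjusted p = 9.50e-33), Mir467e one of -0.63 (-0.78 to -0.48) and Mir669o one of -0.71 (-0.91 to -0.51). Mir669h had a log2 ratio of -0.62 with a wide interval of -1.18 to -0.068 (exact binomial adjusted p = 0.0431). Mir467d stood at -0.016 (interval -0.098 to 0.066), and the intervals of its neighbours Mir467e and Mir669c do not overlap its own. The counts of Mir467d were 1.11 times those of Mir669c in replicate 1 and 1.64 times in replicate 2.

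**Figure D4:**
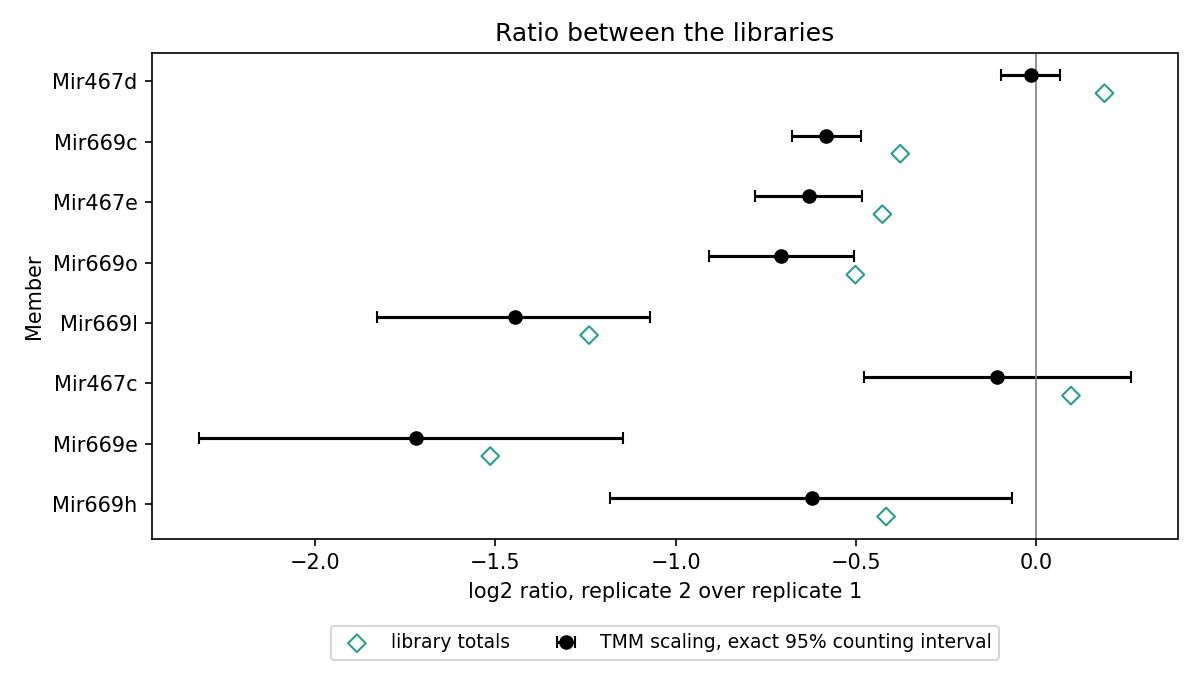
Log2 ratio of replicate 2 over replicate 1 for the 8 detected members, with TMM scaling and exact 95% counting intervals in black and with library totals as open diamonds. The 5 miR-669 genes and Mir467e lie below 0 under both scalings, while Mir467d and Mir467c lie near 0 and turn positive with library totals.

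The sign of the ratio depended on the scaling for Mir467d and Mir467c. Against library totals the median log2 ratio of all genes tested was 0.22, compared with 0.015 after TMM scaling. With library totals Mir467d was called higher in replicate 2 (log2 ratio 0.19, exact binomial adjusted p = 1.67e-05), Mir467c turned to 0.096 without a call, and Mir669h lost its call (-0.42, exact binomial adjusted p = 0.20). Mir669c, Mir467e, Mir669o, Mir669l and Mir669e stayed higher in replicate 1 with every scaling tried.

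Cortical neuron microRNA genes, listed as markers with earlier results of these data known, held 21.9% and 20.6% of counts, with 7 of 10 detected. Mir139, rank 1 among all counted genes, gave 155820 and 141898 CPM of their 218892 and 206062 CPM in replicates 1 and 2. The undetected markers were the 3 Mir124a genes, which define neurons and had at most 9 counts per library. Each of the 3 has at least 20 nt in common with 2 other counted hairpins, and a low count need not be a low level. Mir128-1, Mir128-2, Mir138-1 and Mir138-2 each have such a stretch in common with 1 other hairpin. Their mean levels were 13186, 3186, 5122 and 2602 CPM. Whether sharing lowered the Mir124a counts was not tested. Markers of liver, blood and muscle summed to 105 CPM in replicate 1 and 137 CPM in replicate 2, with Mir1a-1 and Mir1a-2 listed at 0, each of which has such a stretch in common with 1 other hairpin. The summed level was lower in replicate 1, where 6 members were called higher with TMM scaling. With library totals, the scale of these sums, 5 members were called higher in replicate 1 and 1 in replicate 2. The part of these markers in the member ratios was not tested.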

How the data were processed

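The deposited tables hold raw counts of reads per microRNA gene, made from 1 FASTQ file each on mm10 with GENCODE M21, per the text records deposited beside them. No aligner or counter is named in the sources used here. Columns carry no header, and the 3 count columns were read from the values as either, own and opposite strand. The own-strand column was used, and it held 93.8% of both stranded columns. The 4 rows of unmapped, multiply placed, unassigned and ambiguous reads were left out of library sizes. All 2202 identifiers matched the M21 annotation on GRCm38, which gave names, positions and hairpins; mature sequences came from RefSeq.

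Levels are CPM, as mean ± SD over 2 libraries. Detection meant at least 10 counts in both. Exact 95% intervals and the floor of 3 counts cover counting error only, since PCR reads without molecular identifiers are not independent molecules. Libraries were compared by an exact binomial test on TMM-scaled sizes (edgeR 4.0.16), over genes whose counts summed to at least 10, with calls at adjusted p under 0.05; edgeR's own tests need a contrast, which 1 group lacks. The test was run on simulated counts with counting noise alone and without TMM scaling. That run cannot show how the test behaves under other variation between libraries. Named genes were all detected members, the 12 highest, all called members and the highest of each family in either place. Members and lists were chosen with earlier results of these data known. Alternatives were the either-strand column, all reads as denominator, wider names, a wider locus, other count minimums, DESeq2 1.42.0 size factors, library totals, other stretch lengths, 1 mismatch and leaving out each replicate. Software was Python 3.11.15, scipy 1.17.1, pandas 2.3.3, numpy 2.4.6, matplotlib 3.10.9 and R 4.3.3.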

Additional observations from a re-analysis of the deposited data

How the results depend on the processing

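With all reads as denominator, the members' share was 0.0650%, and that of the members in Sfmbt2 was also 0.0650%. The share ranged from 0.174% to 0.197% when each replicate was left out, for the members as for those in Sfmbt2, and it was 0.199% in the either-strand column. Wider names, which add Mir297-1, and a locus extended by 100 kb left the shares at 0.185%. Detected members numbered 9 at a minimum of 1 count, 8 at 5 counts and 5 at 100 counts, where Mir669l, Mir669e and Mir669h dropped out. The either-strand column and either replicate alone gave 8. Members called between the libraries numbered 6 with DESeq2 size factors, library totals and the either-strand column, and 5 with no count minimum, where Mir669h had an exact binomial adjusted p of 0.064. Members sharing a stretch numbered 79 at 18 nt and 78 at 22 nt or, chosen after seeing the data, on either strand at 20 nt. Mature sequences found in another hairpin numbered 1 exactly and 7 with 1 mismatch. The counts of members without a window of their own at 18 and 22 nt were also added after seeing the data. With 2 libraries of 1 group, no paired analysis was possible because there are no groups to pair.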
